A study of Mus musculus with 31 samples.

Results

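Nkx2-1, Foxa1 and Foxa2 encode the transcription factors that this study immunoprecipitated, so their own loci show how the factors and 4 histone marks were arranged at the genes that make them. The loci were taken as 3 fixed windows of build mm9: Nkx2-1 on chromosome 12 at 57530000 to 57740000 (210 kb), Foxa1 on chromosome 12 at 58540000 to 58750000 (210 kb) and Foxa2 on chromosome 2 at 147770000 to 147970000 (200 kb). The windows were set by position and not by signal. They held 307 of the 526837 peaks and islands in the 11 deposited lists: 75 at Nkx2-1, 109 at Foxa1 and 123 at Foxa2. The gene positions used to measure distances are approximate, 57.6355 Mb for Nkx2-1, 58.64 Mb for Foxa1 and 147.87 Mb for Foxa2, and were not checked against an mm9 annotation, which was not used here. "Below" and "above" mean toward lower and higher coordinates. In the RefSeq annotation of build GRCm38.p6, used for names and order only, all 3 genes lie on the minus strand. The nearest protein-coding neighbors there were Mbip and Nkx2-9 for Nkx2-1, Mipol1 and Sstr1 for Foxa1, which Ttc6 overlaps, and Pax1 and Sstr4 for Foxa2. No peak or island was assigned to a neighbor.

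Nkx2-1 is a homeodomain factor that specifies and maintains lung epithelium and is expressed by the alveolar type II cells. Foxa1 and Foxa2 are closely related forkhead factors that bind DNA in closed chromatin of endoderm-derived epithelia, lung included, and act together with lineage factors such as Nkx2-1. Genes for developmental regulators of this kind often carry the Polycomb mark H3K27me3 where they are silent, and broad H3K4me3 and H3K27ac, the marks of active promoters and enhancers, where they are expressed. H3K4me1 marks enhancers, active or not.

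ChIP-seq was done on murine lung adenocarcinomas, all from mixed 129/B6 mice aged 4 to 7 months. Tumors labelled positive for Nkx2-1 are called positive here, and those labelled as having lost the gene by deletion are called deleted. Per the labels' protocols, mice were infected through the trachea with adenovirus or lentivirus, and tamoxifen was given at 56 or 112 micrograms per gram body weight. The labels state neither which mice received which virus or dose, nor the alleles that drive the tumors or the deletion, nor the part of Nkx2-1 that was removed. Nkx2-1 was immunoprecipitated from positive tumors only (2 libraries, both male), Foxa1/2 with 1 antibody against both proteins from positive (2 male) and deleted tumors (2 female), and each mark from 1 male and 1 female of each tumor type. Tumor type and sex therefore cannot be told apart for Foxa1/2. The 2 files of each of the 11 groups were identical, so each group is 1 pooled list, no difference has a replicate check, and no p-value was computed. Tumors are mixtures of cells, so fewer cells with a mark and less of it per cell cannot be told apart.

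The starts of the 3 genes in RefSeq (GRCm38.p6, by symbol, gene strand, 5′ to 3′) are shown because Foxa1/2 or Nkx2-1 peaks lay near each gene position. Where these bases fall within the mm9 peaks was not established. The Nkx2-1 and Foxa2 stretches are the 250 bases before the start listed first for each gene. The Foxa1 stretch is bases -152 to -123 from its start, with the only match to the words searched below in capitals.
Nkx2-1: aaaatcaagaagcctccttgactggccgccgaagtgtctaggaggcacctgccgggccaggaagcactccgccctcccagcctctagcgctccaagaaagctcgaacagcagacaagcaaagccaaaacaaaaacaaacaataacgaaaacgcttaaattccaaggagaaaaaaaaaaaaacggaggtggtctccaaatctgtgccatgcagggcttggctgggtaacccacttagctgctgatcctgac
Foxa1: tatactgctttGTAAACAaagtgagggcca
Foxa2: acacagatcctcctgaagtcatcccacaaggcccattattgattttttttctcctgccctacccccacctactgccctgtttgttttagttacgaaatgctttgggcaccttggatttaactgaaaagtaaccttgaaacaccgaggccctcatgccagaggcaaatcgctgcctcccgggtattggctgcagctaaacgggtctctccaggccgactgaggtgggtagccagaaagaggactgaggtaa

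The 300 bases around each start (250 before, 50 after) were searched on both strands for short words bound by these factors, a set settled after matches were seen. The forkhead word TGTTTAC was present in 3.65% of 32851 RefSeq promoters. Foxa1 held 1 match to it, on the other strand, which is the stretch in capitals. A second forkhead word, TGTTTGC, was present in 5.07% of promoters. Another, TATTTAC, which ends in the same letters as the first, was present in 3.04%. The word CAAGTG, bound by Nkx2 homeodomains, was present in 13.6%. Nkx2-1 and the 3 starts listed for Foxa2 held no match to any of the 4 words, and Foxa1 held no other. Variants of the forkhead words, such as TGTTTGT, were not searched. That string is in the printed Foxa2 stretch and, on the other strand, in the printed Nkx2-1 stretch. Foxa1 is therefore not shown to be the only one of the genes with a forkhead-like word. The 300 bases of Foxa1 held 26 CpG and had a GC share of 62.3%. The Foxa2 start listed first and the Nkx2-1 start each had 12 CpG, with GC shares of 54.3% and 53.7%. The other Foxa2 starts had 23 CpG (64.0% GC) and 13 CpG (51.7% GC). The median over all promoters was 7 CpG and 52.7%. A match is a string of letters and not a measured site.

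At the Nkx2-1 gene the deleted tumors kept the acetylated and H3K4me3-marked domain seen in positive tumors. One H3K27ac island covered 57608201 to 57643200 (35.0 kb) in positive tumors and 57608601 to 57644000 (35.4 kb) in deleted tumors. In the positive list this island held 23680 reads, or 677 per kb, and ranked 5 of 73539 by density. In the deleted list it held 15055 reads, or 425 per kb, and ranked 111 of 61981. Read counts are not scaled for depth. As a share of all island reads of the list, they came to 518 and 483 per 1000000.

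H3K4me3, the promoter mark, formed at Nkx2-1 the island with the highest read count of its list in positive tumors. It lay at 57617601 to 57643200 (25.6 kb), held 13758 reads and ranked 1 of 41584 by reads and 14 by width. Its density, 537 reads per kb, ranked 3638, so the rank by reads goes with its width. In deleted tumors the same stretch was covered by islands of 12.4 kb (4741 reads) and 12.2 kb (4235 reads), with 400 bp between them at 57630201 to 57630600. They ranked 76 and 121 of 30992 by reads. The share of H3K4me3 island reads was 477 per 1000000 in positive and 459 per 1000000 in deleted tumors. Density was 537 and 365 reads per kb, against list means of 277 and 305.

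These lists therefore show no island-free Nkx2-1 gene in deleted tumors. In the 20 kb around the gene position, H3K27ac covered 88.5% (positive) and 92.5% (deleted), and H3K4me3 88.5% and 84.5%. H3K4me1 had a gap of 2200 bp at 57633401 to 57635600 in positive tumors. In deleted tumors that stretch was under an island, and the H3K4me1 gap lay at 57628401 to 57630400. Islands are built from windows of 200 bp with gaps bridged, so a short deleted stretch need not appear as a gap, and the labelled deletion was not checked by these lists.

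**Figure D1:**
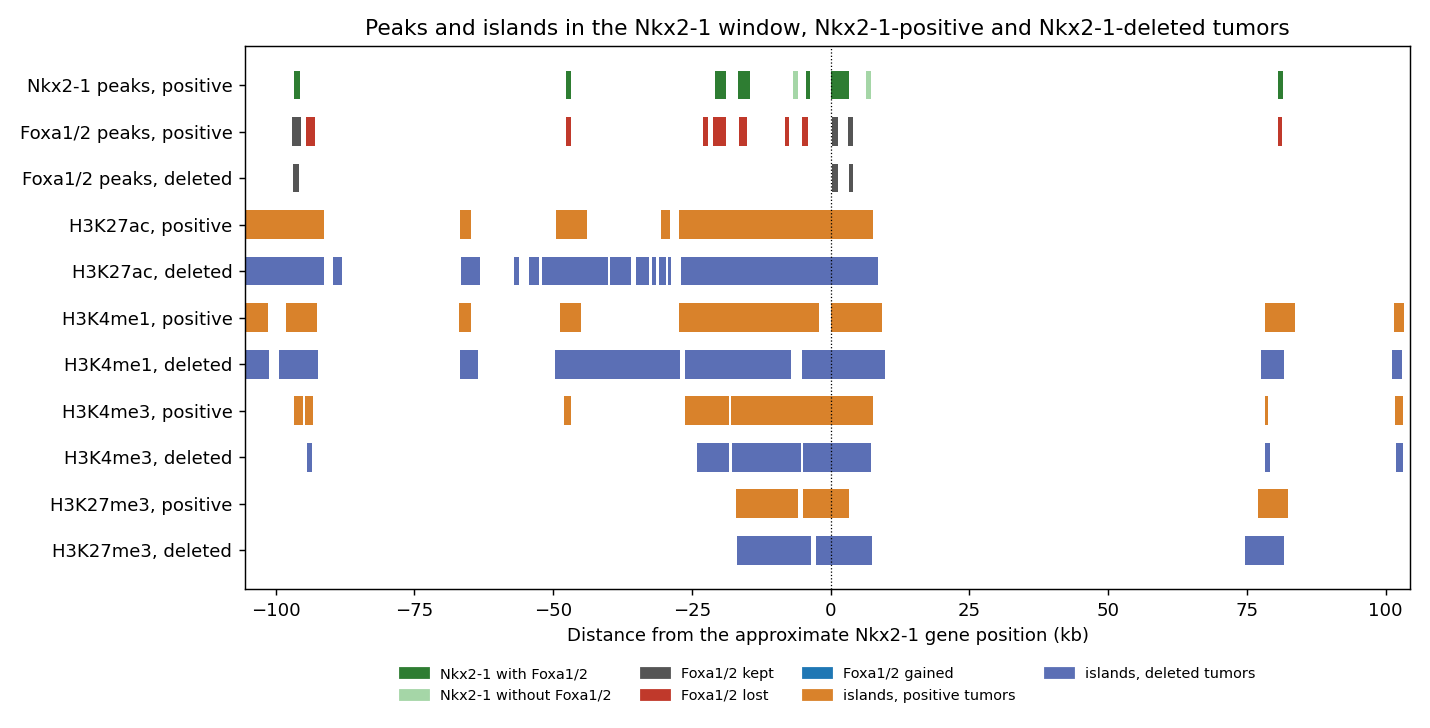
Peaks (upper 3 rows) and histone islands (lower 8 rows) in the 210 kb window of Nkx2-1, with distance from the approximate gene position in kb on the x axis and 1 row per deposited list. Of 11 Foxa1/2 peaks in positive tumors 8 (red) have no counterpart in deleted tumors, while the H3K27ac island of 35.0 kb at the gene is present in both tumor types.

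Most Foxa1/2 peaks of the Nkx2-1 locus were in the positive list only. The positive list held 11 Foxa1/2 peaks in the window and the deleted list held 3. Counting peaks with an overlap of at least 1 bp as shared, 8 of the 11 were lost (present in positive tumors only), 3 were kept and 0 were gained (present in deleted tumors only). Over the whole lists 58.1% of positive-tumor peaks were lost and 33.0% of deleted-tumor peaks were gained. The lost share of 72.7% (95% Wilson interval 43.4 to 90.3, counting error only) includes the whole-list share. Of 12587 windows of 210 kb tiled along the genome, 0.572% had a count at least 8 lower in deleted tumors. Among the 240 windows with 11 or more positive-tumor peaks, 24.6% had a difference that large, a share that choosing windows by positive-tumor count tends to raise. When the longer list was reduced to the number of peaks in the shorter one, by score, 6 were lost and 3 kept. The longer list is the positive one, so by construction the lost count cannot rise under this setting.

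The kept peaks were those nearest the gene position, up to 3.6 kb above it, and 1 distant peak of high score. Peaks 4.5 kb and 7.83 kb below the gene position were lost. The distant peak, 96.3 kb below the gene position at 57538441 to 57540116, had a score of 2381 in positive tumors, reached by 2.78% of that list. Its counterpart in deleted tumors scored 658, reached by 11.4% of that list. The peak at 57635803 to 57636785, 0.794 kb above the gene position, scored 716 and 545, reached by 15.5% and 14.6% of the respective lists, with summits 2 bp apart. The peak at 57638659 to 57639595 scored 213 and 77. Scores depend on the depth of each list and were set side by side without a fold.

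Of the 8 lost Foxa1/2 peaks, 7 lay below the gene. The lost peak of highest score, 1164, spanned 57614373 to 57616663 (2291 bp), 19.5 kb below the gene position. Of the 2006 positive-tumor Foxa1/2 peaks that score at least as high, 22.4% were lost. The next 4 lost peaks by score began at 57619068 (score 329), 57541015 (308), 57587777 (306) and 57630424 (284). The other 3 scored 72 to 239. H3K27ac covered 7 of the 8 lost peaks in positive tumors and the same number over 100% of their length in deleted tumors. Over the whole list, 67.6% of lost peaks touched an H3K27ac island in deleted tumors. The eighth, at 57716178 to 57716906 (score 75), had no H3K27ac in either tumor type and lay under H3K27me3 in both.

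**Figure D2:**
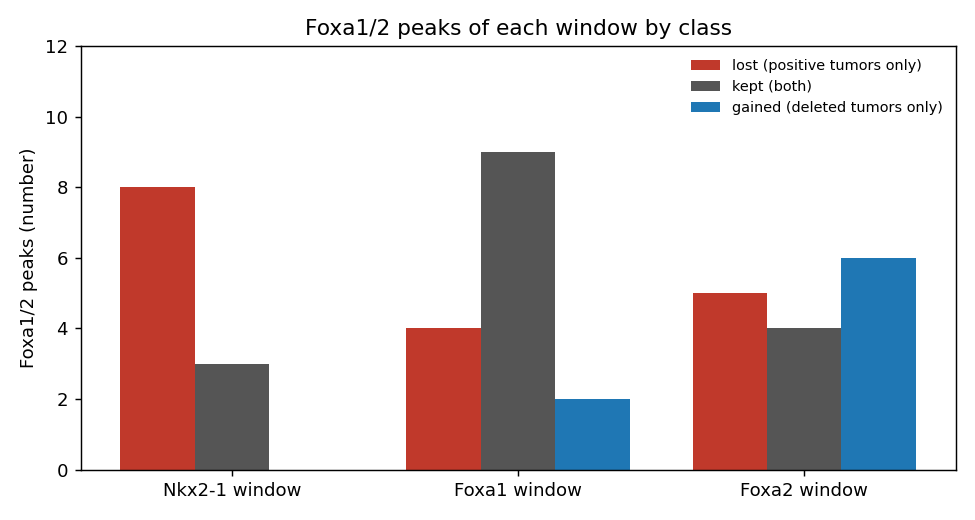
Number of Foxa1/2 peaks in each window that were lost (positive tumors only), kept (both) or gained (deleted tumors only), on a linear axis from 0. Lost peaks were 8 at Nkx2-1, 4 at Foxa1 and 5 at Foxa2, and gained peaks were 0, 2 and 6.

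Nkx2-1 bound its own locus in positive tumors. The window held 9 Nkx2-1 peaks, a count reached by 7.98% of windows of that length. The peak of highest score, 1185, lay at 57635645 to 57638816 (3172 bp) with its summit 0.738 kb above the gene position. It ranked 1073 of 29782 and touched both kept Foxa1/2 peaks at the gene. The others began at 57538741 (score 299), 57587879 (123), 57614679 (494), 57618873 (281), 57628726 (99), 57631099 (74), 57641974 (101) and 57716098 (82). Of the 9, 7 overlapped a positive-tumor Foxa1/2 peak (77.8%, interval 45.3 to 93.7, which includes the 47.6% of the whole list). Conversely, 8 of the 11 positive-tumor Foxa1/2 peaks overlapped an Nkx2-1 peak, against 61.4% of the whole list. They were 5 of the 8 lost peaks, against 66.3% of lost peaks in the whole list, and 3 of 3 kept peaks. The whole-list share for kept peaks was not computed. It lies below the 61.4% of all peaks, since that of lost peaks lies above. The kept peak at 57638659 touched the Nkx2-1 peak at the gene with summits 2866 bp apart. With the upper 50% of each list by score, 4 Nkx2-1 peaks overlapped a Foxa1/2 peak here.

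The Nkx2-1 window as a whole had more length under H3K27ac and H3K4me1 in deleted tumors. The positive list had 5 H3K27ac islands in it, covering 58.4 kb, and the deleted list had 12, covering 77.8 kb. Of the 12, 6 were gained, against 10.8% of deleted-tumor H3K27ac islands in all. They were sparse, from 34 to 196 reads and 49 to 59.4 reads per kb, against a list mean of 137. The widest gained island lay at 57595801 to 57599600 (3800 bp), and none of the 6 held a Foxa1/2 or Nkx2-1 peak. Cover by H3K4me1 was 57.4 and 77.4 kb. A single H3K4me1 island of 22.6 kb (51 reads per kb) at 57585801 to 57608400 in deleted tumors lay where positive tumors had 1 island of 3.8 kb and the start of another. A difference of 19.4 kb or more for H3K27ac was present in 0.842% of tiled windows, and one of 20 kb or more for H3K4me1 in 0.818%. Most windows hold little of either mark, with medians of 6.4 and 10.8 kb in positive tumors. Among the 1884 windows with at least as much H3K27ac in positive tumors as this one, 1.8% had a difference that large, and among the 2255 with at least as much H3K4me1, 2.88% did. Choosing windows by their positive-tumor cover tends to lower such shares by construction. The median differences of the chosen windows were -16.4 kb for H3K27ac and -4.2 kb for H3K4me1. Both differences of the Nkx2-1 window rested on islands of low density. With the upper 50% of each list by density the H3K27ac difference was 2.19 percentage points instead of 9.24. The H3K4me1 difference turned to -2.19 from 9.52.

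H3K4me3 covered 40.0 kb of the Nkx2-1 window in positive tumors and 33.2 kb in deleted tumors. Among the 386 windows with at least as much H3K4me3 in positive tumors, 97.2% were lower in deleted tumors by at least this amount. Choosing windows by positive-tumor cover tends to raise that share. Of 7 positive-tumor islands 2 were lost, against 31.5% of the whole list, and 0 of 6 deleted-tumor islands were gained, against 3.24%. The lost H3K4me3 islands, at 57538801 to 57540400 and 57587401 to 57588800, held 74 and 65 reads. Each lay over a place where Nkx2-1 and Foxa1/2 were both bound in positive tumors.

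H3K27me3 lay over the same gene-proximal domain in both tumor types, at low density. Its islands covered 57618401 to 57629600 and 57630601 to 57638800 in positive tumors (402 and 265 reads) and 57618601 to 57632000 and 57632801 to 57643000 in deleted tumors (492 and 408 reads). In the 20 kb around the gene position it covered 61.5% in positive and 83.5% in deleted tumors. The density was 34.4 and 38.1 reads per kb, near the list means of 38.5 and 42.8. None of 3 positive-tumor H3K27me3 islands in the window was lost and none of 3 deleted-tumor islands was gained, against 19.8% and 17.8% of the whole lists. Of the H3K27me3 length in the window, 80.6% was also under H3K4me3 in positive tumors and 77.8% in deleted tumors.

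Foxa1, about 1 Mb above Nkx2-1 on the same chromosome, had Foxa1/2 peaks in both tumor types in nearly equal number. The positive list held 13 peaks and the deleted list 11. Of the 13, 4 were lost (30.8%, interval 12.7 to 57.6) and 9 were kept, and 2 of the 11 were gained. Over the whole lists, 58.1% were lost and 33.0% gained. With the upper 50% of each list by score the counts were 4 lost, 3 kept and 4 gained, and with equal numbers of peaks 3 lost, 6 kept and 5 gained. Equal numbers shorten the positive list only, so by construction lost peaks cannot become more numerous and gained peaks cannot become fewer. Under either setting, a peak counted as gained can have a lower-scoring counterpart in the full positive list. Of windows of this length, 0.381% held 11 or more deleted-tumor peaks.

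The 3 Foxa1/2 peaks nearest the Foxa1 gene position were all kept. They began at 58635461, 58644488 and 58646855 in positive tumors, with scores of 164, 195 and 118, and their counterparts in deleted tumors scored 455, 81 and 71. The kept peaks of highest score lay 42.4 kb and 94.4 kb below the gene position. The first, at 58596779 to 58598452, scored 2734 (2.01% of the list scored as high) and its counterpart 946 (6.58%). The second, at 58544990 to 58546352, scored 1456 (6.38%) and its counterpart 446 (18.3%). The kept peak at 58549835 to 58551127 scored 443 (24.9%), and its counterpart scored 816 (8.31%). Next to these, the peak at 58542694, singled out after its values were seen, scored 66 (95.4%) against 364 (22.6%), so the order of peaks within this distal cluster differed between the lists. The kept peak at 58629018 scored 188 and its counterpart 134, and the remaining one scored 101 and 166.

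The lost Foxa1/2 peaks of the Foxa1 window began at 58577729 (score 379), 58547796 (226), 58612475 (133) and 58715944 (130). In positive tumors all 4 touched H3K27ac. In deleted tumors 1 of the 4 lay under H3K27ac over its full length, 1 in part and 2 not at all. The 2 of 4 that touched the mark stand beside 67.6% of lost peaks in the whole list. At 58577729 to 58578623, the cover by H3K27ac was 92.0% in positive tumors against 0% in deleted tumors. H3K4me1 covered 100% and 92.0%. Nkx2-1 overlapped this peak, with a score of 62, near the minimum of 60 of the list. The gained peaks, at 58616104 to 58617261 (score 305) and 58724135 to 58724792 (score 72), touched islands of H3K27ac, H3K4me1 and H3K4me3 in both tumor types and held no Nkx2-1 peak. Over the whole list, 67.1% of gained peaks touched H3K27ac in positive tumors and 7.91% overlapped an Nkx2-1 peak. The shares for the other marks were not computed.

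Nkx2-1 peaks in the Foxa1 window numbered 6, and 5 of them overlapped a positive-tumor Foxa1/2 peak (83.3%, interval 43.6 to 97.0, which includes the 47.6% of the whole list). The number was 2 with the upper 50% of each list by score. The highest score, 884 at 58544838 to 58546177, was at the distal cluster. The others began at 58597236 (359), 58646501 (350), 58645783 (64), 58577837 (62) and 58612498 (62), so 2 lay within 10 kb of the gene position.

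**Figure D3:**
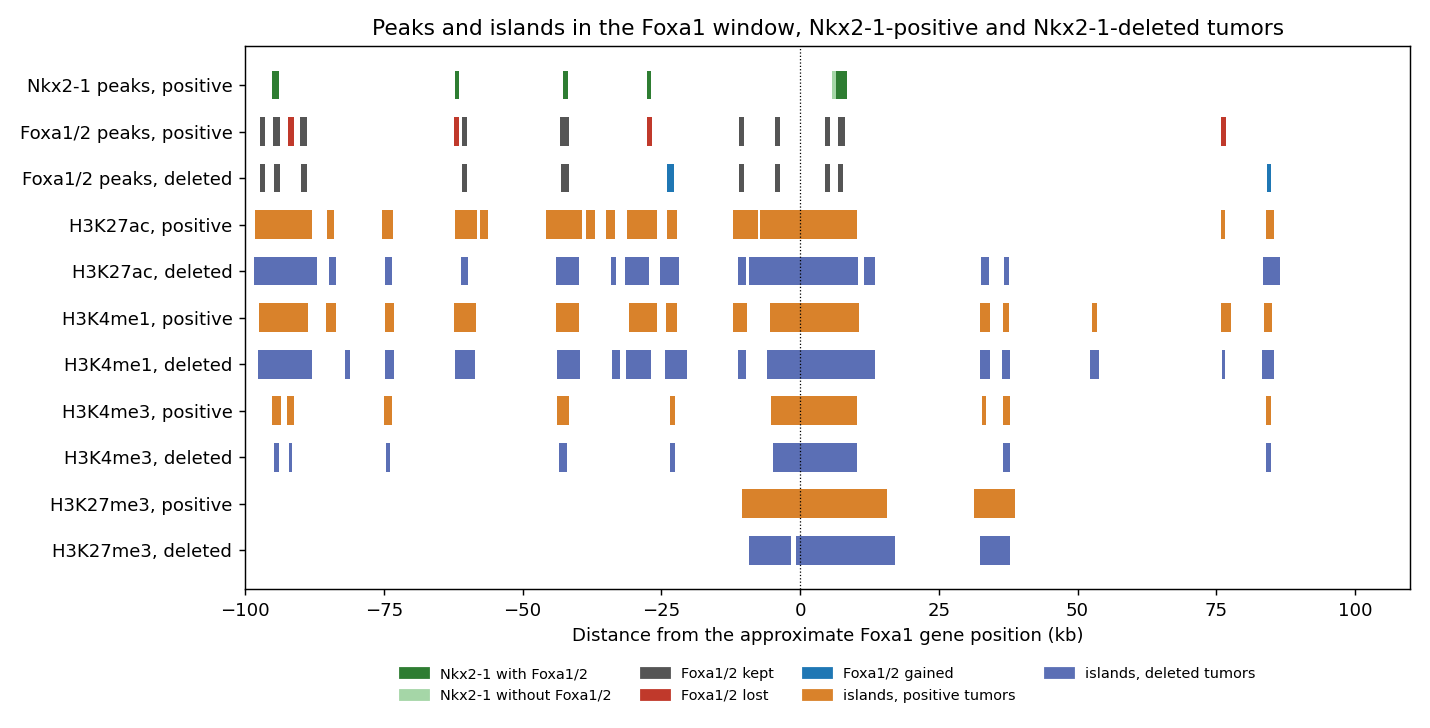
Peaks and histone islands in the 210 kb window of Foxa1, drawn as rows of deposited lists against distance from the approximate gene position in kb. The 9 kept Foxa1/2 peaks (grey) include the 3 nearest the gene, and islands of all 4 marks lie over the gene in both tumor types.

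The marks at the Foxa1 gene were alike in place in both tumor types. The H3K27ac island at the gene spanned 58632801 to 58650200 (17.4 kb, 9403 reads, 540 per kb) in positive tumors and 58630801 to 58650400 (19.6 kb, 8854 reads, 452 per kb) in deleted tumors. It ranked 19 and 63 of its lists by density. A smaller H3K27ac island beside it, 4.4 kb in positive and 1.4 kb in deleted tumors, held the kept Foxa1/2 peak at 58629018. The share of island reads in the larger island was 206 per 1000000 in positive and 284 per 1000000 in deleted tumors. The H3K4me3 island was 15.4 and 15.0 kb wide, with 8839 and 6001 reads, which is 306 and 307 per 1000000 island reads. It ranked 26 of 41584 and 28 of 30992 by reads. H3K4me1 covered 79.0% and 81.0% of the 20 kb around the gene position. H3K27me3 covered 100% of that stretch in positive tumors, as 1 island of 26.0 kb, and 92.0% in deleted tumors, as islands of 7.6 and 18 kb.

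Over the whole Foxa1 window, the length under H3K27ac was 59.8 kb (positive) and 56.0 kb (deleted), under H3K4me1 52.8 and 58.6 kb, H3K4me3 25.4 and 21.4 kb, and H3K27me3 33.4 and 31.0 kb. Lost and gained H3K27ac islands were 3 each of 14, against 32.3% and 10.8% of the whole lists. The widest lost one lay at 58601401 to 58603000 (1600 bp) and the widest gained one at 58651601 to 58653600 (2000 bp). For H3K4me1, 1 of 14 islands was lost (58554601 to 58556400), against 23.1% of the whole list, and 2 of 15 were gained, against 8.39%. The wider gained one lay at 58606201 to 58607600 (78 reads). For H3K4me3, 1 of 9 was lost (58672801 to 58673600, 63 reads), against 31.5%. The sign of the H3K27ac difference turned when the longer list was reduced to equal covered length, from -1.81 to 1.05 percentage points. The H3K4me3 difference then turned from -1.9 to 0.857. That setting shortens the positive list only, which shifts values toward deleted tumors by construction. The H3K4me3 difference was -2.29 with the upper 50% by density and -2 in the 20 kb around the gene position. With the upper 50% of each list by density the H3K27ac difference was 0.476 and the H3K4me1 difference -3.81 instead of 2.76, so no direction is given for the active marks in this window.

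Foxa2 had as many Foxa1/2 peaks in deleted tumors as in positive tumors, but largely at other places. The positive list held 9 peaks and the deleted list 10. Of the 9, 5 were lost (55.6%, interval 26.7 to 81.1) and 4 kept, and 6 of the 10 were gained (60.0%, interval 31.3 to 83.2), against 58.1% lost and 33.0% gained over the whole lists. Of 13219 windows of 200 kb, 0.514% held 10 or more deleted-tumor peaks. Among the 470 windows with 9 or more positive-tumor peaks, the median ratio of deleted to positive count was 0.556. Choosing windows by positive-tumor count tends to lower that ratio. Of the 9 positive-tumor peaks, 7 scored under the list's median of 184. With the upper 50% of each list by score the counts were 0 lost, 2 kept and 2 gained, and with equal numbers of peaks 1 lost, 2 kept and 8 gained. As at Foxa1, peaks gained under these settings can have lower-scoring counterparts in the full positive list, and equal numbers shorten that list only.

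The gained Foxa1/2 peak of highest score lay at the Foxa2 gene. It spanned 147870811 to 147871853, with its summit 1.33 kb above the gene position and a score of 537 (14.9% of the deleted list scored as high). It was the only gained peak of the 3 windows that overlapped an Nkx2-1 peak of positive tumors, against 7.91% of gained peaks in the whole list. That Nkx2-1 peak, at 147871193 to 147872572, scored 437, and the summits lay 499 bp apart. The neighboring Foxa1/2 peak, at 147872152 to 147873369, was kept, with scores of 314 and 387. The other gained peaks began at 147846351 (score 101), 147794089 (94), 147833128 (87), 147850989 (80) and 147914388 (66). H3K27ac covered 5 of the 6 gained peaks in positive tumors already and the same number in deleted tumors, against 67.1% of gained peaks with the mark in positive tumors over the whole list.

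The other kept Foxa1/2 peaks at Foxa2 were at 147810335 (scores 390 and 582), 147839020 (60 and 95) and 147865695 (115 and 255). The lost peaks began at 147856407 (score 131), 147905969 (115), 147843706 (100), 147907774 (91) and 147796852 (89), all below that median. H3K27ac covered 3 of the 5 in both tumor types. Over the whole list, 67.6% of lost peaks touched the mark in deleted tumors. The lost peak at 147907774 lay under H3K27me3 over 0% of its length in positive and 100% in deleted tumors, in the 1 of 5 deleted-tumor H3K27me3 islands of this window that was gained, at 147907601 to 147912000 (114 reads), near the 17.8% gained over the whole list.

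Nkx2-1 had 8 peaks in the Foxa2 window. Of these, 2 overlapped a positive-tumor Foxa1/2 peak (25.0%, interval 7.15 to 59.1, which includes the 47.6% of the whole list), a number that was 1 with a stricter overlap. At Nkx2-1 the number was 7 of 9 and at Foxa1 5 of 6, with intervals that overlap the one at Foxa2. The highest score, 721, belonged to the peak at 147843513 to 147844681, 25.9 kb below the gene position, which shared its place with a lost Foxa1/2 peak. The others began at 147871193 (437), 147849801 (341), 147830312 (196), 147817216 (102), 147894588 (89), 147847460 (82) and 147863856 (81). Each of the 8 lay under H3K27ac and H3K4me1 over at least 98.2% of its length in both tumor types. The share of all Nkx2-1 peaks under these marks was not computed, so this cannot be called particular to the window.

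**Figure D4:**
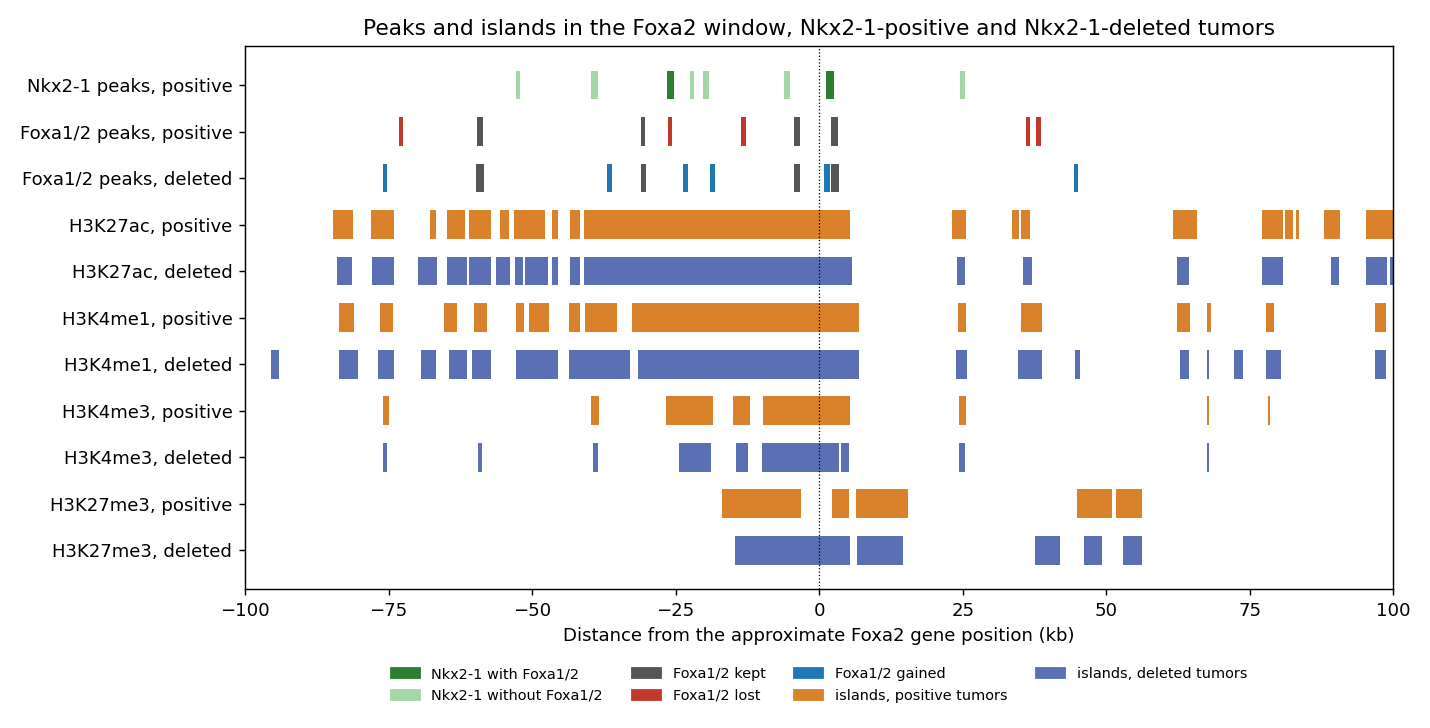
Peaks and histone islands in the 200 kb window of Foxa2, drawn as rows of deposited lists against distance from the approximate gene position in kb. The H3K27ac island of 46.4 kb below and over the gene is present in both tumor types, and 6 Foxa1/2 peaks (blue) are present in deleted tumors only.

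The H3K27ac island at Foxa2 was the widest of the 3 genes. It spanned 147829001 to 147875400 (46.4 kb, 17171 reads, 370 per kb) in positive tumors and 147829001 to 147875800 (46.8 kb, 15617 reads, 334 per kb) in deleted tumors. It ranked 106 of 73539 and 54 of 61981 by width. The share of island reads was 376 and 501 per 1000000. H3K4me1 lay over the same stretch as islands of 39.6 and 38.6 kb, and H3K4me3 at the gene covered 15.2 kb (7351 reads) in positive tumors and 14.8 kb in 2 islands (6544 reads) in deleted tumors. The H3K4me3 share was 255 and 334 per 1000000 island reads. Further below, the H3K4me3 island at 147843401 to 147851600 (8200 bp, 984 reads) in positive tumors corresponded to one at 147845601 to 147851200 (5600 bp, 373 reads) in deleted tumors. The part without H3K4me3 in deleted tumors included the Nkx2-1 peak of score 721, which H3K4me3 covered over 100% in positive and 0% in deleted tumors.

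H3K27me3 was continuous over Foxa2 in deleted tumors and had a gap there in positive tumors. In positive tumors its islands left out 5400 bp at 147866801 to 147872200, between islands of 13.8 kb (471 reads) and 3.0 kb (102 reads). In deleted tumors 1 island of 20.0 kb (817 reads, 40.9 per kb) spanned 147855401 to 147875400. H3K27me3 thus covered 67.0% of the 20 kb around the gene position in positive tumors against 94.0% in deleted tumors. The gained Foxa1/2 peak lay in the part that differed, under H3K27me3 over 0% of its length in positive and 100% in deleted tumors. The whole window had 36.2 and 38.6 kb of H3K27me3. The difference over the gene rests on 1 stretch of 5400 bp at a density near that of the lists as a whole.

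Over the whole Foxa2 window, H3K27ac covered 94.4 kb in positive and 88.6 kb in deleted tumors, H3K4me1 73.0 and 88.0 kb, and H3K4me3 30.8 and 26.0 kb. Of the H3K4me1 islands in deleted tumors 4 of 17 were gained, against 8.39% of the whole list, and 0 of 15 were lost, against 23.1%. The widest gained one lay at 147800601 to 147803200 (2600 bp, 189 reads). For H3K27ac, 3 of 19 islands were lost, against 32.3% of the whole list, the widest at 147951201 to 147952600 (76 reads). For H3K4me3, 1 of 8 was lost, against 31.5%, at 147948201 to 147948600 (30 reads). The 1 of 9 H3K4me3 islands that was gained, against 3.24%, lay at 147810601 to 147811200 (31 reads), under the kept Foxa1/2 peak 58.9 kb below the gene position. At equal covered length the sign turned for H3K27ac, from -2.9 to 5.4 percentage points, and for H3K4me3, from -2.4 to 3.3. That setting shortens the positive list only, which shifts values toward deleted tumors by construction. The H3K27ac difference was -3.5 with the upper 50% by density and 2 in the 20 kb around the gene position. For H3K4me3 these values were -5.1 and -2. The H3K4me1 difference was 7.5 points with all islands, 11 at equal covered length and 1.7 with the upper 50% by density.

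**Figure D5:**
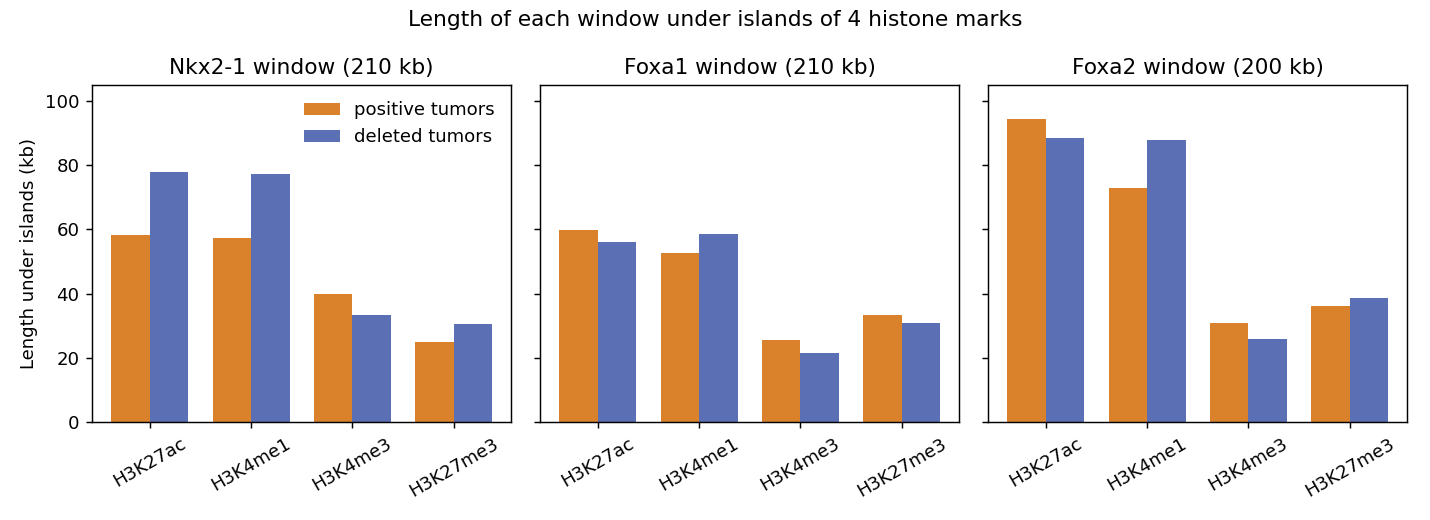
Length of each window (kb, linear axis from 0) under islands of H3K27ac, H3K4me1, H3K4me3 and H3K27me3, with 1 bar per pooled list and no error bars since each group is 1 list. The Nkx2-1 window has 58.4 and 77.8 kb under H3K27ac in positive and deleted tumors, while the Foxa1 window has 59.8 and 56.0 kb.

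The 3 loci shared H3K27me3 beneath factor peaks. Across the windows, H3K27me3 islands of positive tumors touched 9 of 23 Nkx2-1 peaks and 13 of 33 Foxa1/2 peaks, against 2.01% and 2.43% of the respective whole lists. In deleted tumors they touched 10 of the places of the 23 Nkx2-1 peaks, against 3.44%, and 8 of 24 Foxa1/2 peaks, against 4.64%. By locus, the counts for positive-tumor Foxa1/2 peaks were 6 of 11 at Nkx2-1, 4 of 13 at Foxa1 and 3 of 9 at Foxa2. The peaks of a window lie close together and share islands, so they are not independent. All 3 genes also had an H3K4me3 island of at least 12.4 kb within 10 kb of the gene position in both tumor types, and H3K27me3 overlapped it. Over the whole lists, H3K27me3 overlapped 15.2% of H3K4me3 islands in positive and 20.1% in deleted tumors. Those islands had median widths of 1800 and 1600 bp. Wider islands touch others more easily, so these shares are not a like-for-like background. Whether the opposite marks lay on the same molecules or in different cells of the tumors was not tested.

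The windows end at fixed positions, and binding went on beyond them. The nearest positive-tumor Foxa1/2 peak outside the Nkx2-1 window, at 57527315 to 57529057 (score 795), lay 0.943 kb below its edge, and the nearest deleted-tumor peak (score 76) lay 0.092 kb below it. That deleted-tumor peak, at 57529090 to 57529908, overlapped no positive-tumor peak. The count of 0 gained peaks at Nkx2-1 therefore depends on that edge. Just inside that edge was the kept peak at 57538441. At Foxa2 the nearest positive-tumor peaks outside lay 15.2 kb below (score 2338) and 8.93 kb above (score 703). Below the Foxa1 window the nearest positive-tumor Foxa1/2 peak (score 107) lay 28 kb away and the nearest deleted-tumor peak (score 217) 55.5 kb away. Above the Foxa1 window the next Foxa1/2 peak of either list was more than 1 Mb away, at 1364 kb in positive and 1391 kb in deleted tumors.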

How the data were processed

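Peaks of Nkx2-1 (positive tumors) and Foxa1/2 (both tumor types) and islands of 4 histone marks were used as deposited. Reads of 40 to 50 nucleotides were sequenced, per the labels' protocols. Bowtie, MACS 1.4.2, SICER 1.1 and the build mm9 are named in the submitters' processing notes, with no roles. Per the file headers and names, lists are merged over libraries; the names give 1e-06 as p for peaks and 0.01 as FDR for islands, which were built in steps of 200 bp and joined across 200 bp for H3K4me3 and H3K27ac or 600 bp for H3K27me3 and H3K4me1. The deposited peak score, from the caller the authors used, is at least 60. The deposited island value is a whole-number count, taken as reads, which the authors did not scale for depth as far as the values show. Scores and counts were used to rank within a list. Totals of mapped reads were not used here. Reads inside islands, in units of 1000000, came to 45.7 and 31.2 for H3K27ac, 35.8 and 29.8 for H3K4me1, 28.9 and 19.6 for H3K4me3 and 18.5 and 19.8 for H3K27me3 (positive and deleted), and values per 1000000 island reads refer to these. The 9 inputs were not analysed here.

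Groups came from the titles. The members, lists and tests were chosen with earlier results of these data known. Peaks or islands with an overlap of at least 1 bp were shared. Tiled windows of the length of each locus gave the background. Where a list had over 10 peaks in a window, the 5 of highest score in each class were named, with the exceptions stated and the peaks nearest the gene. Islands named were those within 10 kb of the gene position and the widest present in 1 tumor type only. Alternatives were an overlap of 50%, summits within 200 bp, the upper 50% of each list, equal numbers of peaks, equal covered length and the central 20 kb. Intervals are 95% Wilson intervals. Overlap rules were checked on simulated lists. Python 3.11.15, numpy 2.4.6 and matplotlib 3.10.9 were used.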

Additional observations from a re-analysis of the deposited data

How the results depend on the processing

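Of 45 alternative values for 12 peak counts, 32 stayed within 1.5 times the reported count. With an overlap of 50% or summits within 200 bp, the Nkx2-1 peaks shared with Foxa1/2 at Foxa2 numbered 1. With the upper 50% of each list by score they numbered 4 at Nkx2-1, 2 at Foxa1 and 1 at Foxa2. The same setting gave 3 kept and 4 gained Foxa1/2 peaks at Foxa1, and 0 lost, 2 kept and 2 gained at Foxa2. With equal numbers of Foxa1/2 peaks, 5 were gained at Foxa1, and 1 was lost and 2 kept at Foxa2. This setting shortens the positive list only, so by construction lost counts cannot rise and gained counts cannot fall. The 8 lost peaks at Nkx2-1 became 6 to 8.

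Of 36 alternative values for 12 differences in cover (deleted minus positive, percentage points), 8 changed sign, and 10 others left a nominal Newcombe interval that counts bins of 200 bp as independent. Bins of 1 island are not independent, so the interval says nothing about stability. With the upper 50% of each list by density, H3K27ac was 2.19 and H3K4me1 -2.19 at Nkx2-1, H3K27ac 0.476 and H3K4me1 -3.81 at Foxa1, H3K4me1 1.7 at Foxa2, and H3K27me3 5.9 at Nkx2-1 and 10.4 at Foxa2. At equal covered length, H3K27ac was 1.05 and H3K4me3 0.857 at Foxa1, and 5.4 and 3.3 at Foxa2; this setting shortens the positive list only, which shifts values toward deleted tumors by construction. In the central 20 kb, H3K27ac was 4 at Nkx2-1 and 2 at Foxa2, H3K4me1 was 4 at Nkx2-1 and 0 at Foxa2, and H3K27me3 was 22, -8 and 27 at Nkx2-1, Foxa1 and Foxa2. The cause of the other changes was not tested. Leaving out a replicate was not run, since the 2 files of each group are identical. No paired analysis was possible because each group gives 1 pooled list.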
